A study of Mus musculus with 16 samples.

Results

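Regulatory T cells are CD4 T cells that restrain other lymphocytes. They are defined by the transcription factor encoded by Foxp3, carry the high-affinity IL-2 receptor, and often accumulate in tumors. Some tissue regulatory T cells also carry ST2, the receptor of the cytokine IL-33. The 8 genes described here were chosen by name. They are Foxp3, Ikzf2 (the transcription factor Helios), Il2ra (the alpha chain of the IL-2 receptor), Ctla4 (an inhibitory receptor that competes for CD80 and CD86), Tnfrsf18 (GITR) and Tnfrsf4 (OX40), both co-stimulatory receptors of the TNF receptor family, Ccr8 (a chemokine receptor of tumor regulatory T cells), and Cd4, the co-receptor for MHC class II. They are 8 of the 22298 genes counted.

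The tumors came from the peritoneal cavity of wild-type mice of line 615 that carried MFC cells, a murine gastric cancer line that grows in this strain. Each mouse was 6 weeks old and received 500000 cells. The control group (8 tumors) was given PBS and the IL-33 group (8 tumors) 20 μg/kg of IL-33, into the peritoneal cavity at intervals of 2 days. Polyadenylated RNA of whole tumors was sequenced, and the total count per tumor was 14139268 to 24290794 in the control group and 16569613 to 24288893 in the IL-33 group. Levels are given as CPM, a gene's count over the total count of its tumor, scaled alike in all tumors. The tumors are unsorted tissue, so fewer cells of a type and less RNA per cell cannot be told apart.

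IL-33 replicate 7 and control replicate 4 stood apart from the other libraries. The TMM scaling factor, which compares the bulk of genes between libraries, was 1.24 in IL-33 replicate 7, 0.64 in control replicate 4 and 0.895 to 1.10 in the remaining 14. Genes of the female reproductive tract were also found in IL-33 replicate 7. The 10 listed genes of that tissue summed to 1650 CPM there, with the oviduct glycoprotein gene Ovgp1 at 922.5 CPM, against 29.7 to 64.6 CPM in the control group. Its level of Il1rl1, the gene of ST2, was 37.1 CPM, against 489 to 1318 CPM in the control group. The members' fold changes are therefore given with and without this tumor.

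The members were scarce transcripts. Per kilobase of exon, the order of the median level over the 16 tumors was Tnfrsf18 (1.19 CPM per kb), Tnfrsf4 (0.745), Ctla4 (0.437), Ikzf2 (0.372), Il2ra (0.329), Cd4 (0.249), Ccr8 (0.105) and Foxp3 (0.0802). Tnfrsf18 exceeded Tnfrsf4 in 15 of the 16 tumors, and Tnfrsf4 exceeded Ctla4 in 13. Neighbors in the middle of the order were not separated beyond the spread between tumors. Ctla4 exceeded Ikzf2 in 10 tumors, Ikzf2 exceeded Il2ra in 10, and Il2ra exceeded Cd4 in only 6. Cd4 was above Ccr8 in all 16 tumors, whereas Ccr8 was above Foxp3 in 7. The coefficient of variation of the CPM over the 16 tumors was 42.5% for Ikzf2 and lay between 68.7% (Tnfrsf18) and 96.1% (Cd4) for the other members.

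Foxp3 (ENSMUSG00000039521) lies on the plus strand of chromosome X from 7573644 to 7595245 in GRCm38. In the control group its level was 0.198 CPM in the lowest tumor, 0.29 CPM at the median and 1.77 CPM in the highest. For IL-33 tumors these values were 0, 0.645 and 1.64 CPM. The groups overlapped. Control replicate 7 was the highest of the 16 tumors and IL-33 replicates 4 and 3 followed with 1.64 and 1.48 CPM, whereas IL-33 replicates 6 and 2 were the lowest of all. These levels rest on 0 to 31 counts a tumor. The count of 0 in IL-33 replicate 6 allows up to 0.162 CPM (3 counts) or, as the upper end of an exact Poisson 95% interval, 0.199 CPM, and the interval of the 1 count in IL-33 replicate 2 runs from 0.00153 to 0.336 CPM. Such intervals and limits cover counting error only. The control mean was 0.561 ± 0.559 CPM and the IL-33 mean 0.703 ± 0.601 CPM (SD, n = 8 per group). Of the IL-33 tumors, 4 exceeded the control mean. The log2 fold change was 0.23 (SE 0.74, edgeR BH-adjusted p = 0.954; two-sided exact permutation test on log2(CPM + 0.5), p = 0.678). Leaving out control replicate 7 gave 0.71, leaving out IL-33 replicate 7 gave 0.24, and leaving out IL-33 replicate 3 or 4 gave −0.043 or −0.053. No difference in Foxp3 was detected, and the 95% interval of the log2 fold change ran from −1.34 to 1.79. Of the 4577 exon bases annotated for Foxp3, 2082 are shared with overlapping genes, among them Ppp1r3f and Ccdc22 on the opposite strand, which were also counted. Whether the counting used strand is not given in the sources used here, so reads of these bases could not be assigned with certainty.

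Ikzf2 (ENSMUSG00000025997, minus strand of chromosome 1, 69531214 to 69687245) had the lowest coefficient of variation of the CPM among the 8 members. The lowest, median and highest levels were 0.495, 4.07 and 6.74 CPM in the control group and 2.95, 4.71 and 8.47 CPM in the IL-33 group. Control replicate 4 was far below all other tumors. IL-33 replicate 6, in which Foxp3 had no count, still held 4.06 CPM of Ikzf2, close to the control mean. The means were 4.06 ± 1.94 CPM (SD, n = 8) and 5.28 ± 1.96 CPM (SD, n = 8). Above the control mean were 5 of the 8 IL-33 tumors, and 3 were above every control tumor. The log2 fold change was 0.34 (SE 0.33, edgeR BH-adjusted p = 0.770; two-sided exact permutation test, p = 0.239), and it was 0.32 without IL-33 replicate 7 and 0.18 without control replicate 4. Ikzf2 shares 144 of its 11613 exon bases with Gm29114 on the opposite strand, which is not among the genes counted.

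Il2ra (ENSMUSG00000026770, plus strand of chromosome 2, 11642807 to 11693193) ranged from 0.212 CPM in control replicate 4 through a median of 1.72 CPM to 6.06 CPM in control replicate 7. In the IL-33 group it ranged from 0.216 CPM in replicate 6 through 2.49 CPM to 3.79 CPM in replicate 8, so that all 8 IL-33 tumors lay within the control range. The means were 2.03 ± 1.81 and 2.35 ± 1.27 CPM (SD, n = 8 per group). Of the 8 members Il2ra had the smallest log2 fold change, 0.15 (SE 0.54, edgeR BH-adjusted p = 0.961; two-sided exact permutation test, p = 0.561). It was 0.13 without IL-33 replicate 7, −0.011 without control replicate 4 and 0.60 without control replicate 7.

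Ctla4 (ENSMUSG00000026011, plus strand of chromosome 1, 60887000 to 60915832) had the largest log2 fold change of the 8 members, 0.84 (SE 0.62, edgeR BH-adjusted p = 0.662; two-sided exact permutation test, p = 0.169). Its level was 0.346 CPM in the lowest control tumor, 0.544 CPM at the median and 3.94 CPM in the highest, control replicate 7. In the IL-33 group the same values were 0.433, 1.77 and 4.10 CPM. IL-33 replicates 3 and 5, with 4.10 and 4.06 CPM, were above every control tumor, whereas IL-33 replicates 6 and 7, with 0.433 and 0.456 CPM, were below the control median. The means were 1.15 ± 1.24 and 2.10 ± 1.56 CPM (SD, n = 8 per group), and 5 IL-33 tumors exceeded the control mean. The log2 fold change was 1.01 without IL-33 replicate 7 (edgeR BH-adjusted p = 0.964) and 1.42 without control replicate 7 (95% interval 0.17 to 2.67, edgeR unadjusted p = 0.0287, BH-adjusted p = 0.437). Without IL-33 replicate 5 the value of Ctla4 fell to 0.61, below the 0.70 of Cd4 in the same fit. Over all 16 tumors the difference in Ctla4 did not exceed the spread between tumors.

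Tnfrsf18 (ENSMUSG00000041954, 156026164 to 156028895) and Tnfrsf4 (ENSMUSG00000029075, 156013843 to 156016612) are neighbors on the plus strand of chromosome 4. For Tnfrsf18 the lowest, median and highest levels were 0.84, 1.57 and 5.09 CPM in the control group and 0.108, 2.49 and 6.01 CPM in the IL-33 group. For Tnfrsf4 they were 0.247, 0.956 and 3.20 CPM and 0.216, 1.05 and 5.25 CPM. IL-33 replicate 3 was the highest of the 16 tumors for both genes, control replicate 7 the next, and IL-33 replicate 6 the lowest. The means of Tnfrsf18 were 1.92 ± 1.36 and 2.72 ± 1.80 CPM (SD, n = 8 per group), and its log2 fold change was 0.35 (SE 0.54, edgeR BH-adjusted p = 0.877; two-sided exact permutation test, p = 0.509). The means of Tnfrsf4 were 1.14 ± 0.943 and 1.673 ± 1.601 CPM (SD, n = 8 per group), with a log2 fold change of 0.41 (SE 0.61, edgeR BH-adjusted p = 0.869; two-sided exact permutation test, p = 0.477). Above the control mean were 5 IL-33 tumors for Tnfrsf18 and 4 for Tnfrsf4. Without IL-33 replicate 7 the log2 fold changes were 0.37 and 0.51, and with replicate 3 left out instead they were 0.054 and −0.13. Leaving out control replicate 7 gave 0.67 and 0.78. Tnfrsf18 shares 414 of its 1524 exon bases with a gene on the opposite strand, Gm16008, which is not among the genes counted. Reads of these bases could not be assigned with certainty.

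Ccr8 (ENSMUSG00000042262, plus strand of chromosome 9, 120092114 to 120094906) was at the limit of detection, with 21 counts over the control group and 33 over the IL-33 group. Its level was 0 to 0.515 CPM in the control group (median 0.111) and 0 to 0.468 CPM in the IL-33 group (median 0.176). No count was found in control replicates 4 and 6 and IL-33 replicate 6, which allows up to 0.212, 0.185 and 0.162 CPM (3 counts), or 0.261, 0.228 and 0.199 CPM as the upper ends of exact Poisson 95% intervals. All 8 IL-33 tumors lay within the control range. The log2 fold change was 0.43 (SE 0.83, edgeR BH-adjusted p = 0.910; two-sided exact permutation test, p = 0.442) and 0.51 without IL-33 replicate 7. The 95% interval, −1.32 to 2.19, was the widest of the 8, and single tumors moved the value between 0.19 (without IL-33 replicate 8) and 1.01 (without control replicate 7).

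Cd4 (ENSMUSG00000023274, minus strand of chromosome 6, 124864692 to 124888221) had 0.354 CPM in the lowest control tumor, 0.844 CPM at the median and 6.17 CPM in control replicate 7, the highest of all tumors. In the IL-33 group it had 0.162, 1.96 and 4.85 CPM. IL-33 replicates 4, 8 and 3 held 4.85, 4.36 and 3.88 CPM and replicate 7 held 2.56 CPM, each above the control mean, while no other IL-33 tumor was. The means were 1.497 ± 1.94 and 2.38 ± 1.79 CPM (SD, n = 8 per group), and the log2 fold change 0.59 (SE 0.65, edgeR BH-adjusted p = 0.7998; two-sided exact permutation test, p = 0.267). It was 0.63 without IL-33 replicate 7 and 1.399 without control replicate 7 (95% interval 0.19 to 2.61, edgeR unadjusted p = 0.0261, BH-adjusted p = 0.437). The lowest value, 0.39, was that without IL-33 replicate 4.

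**Figure D1:**
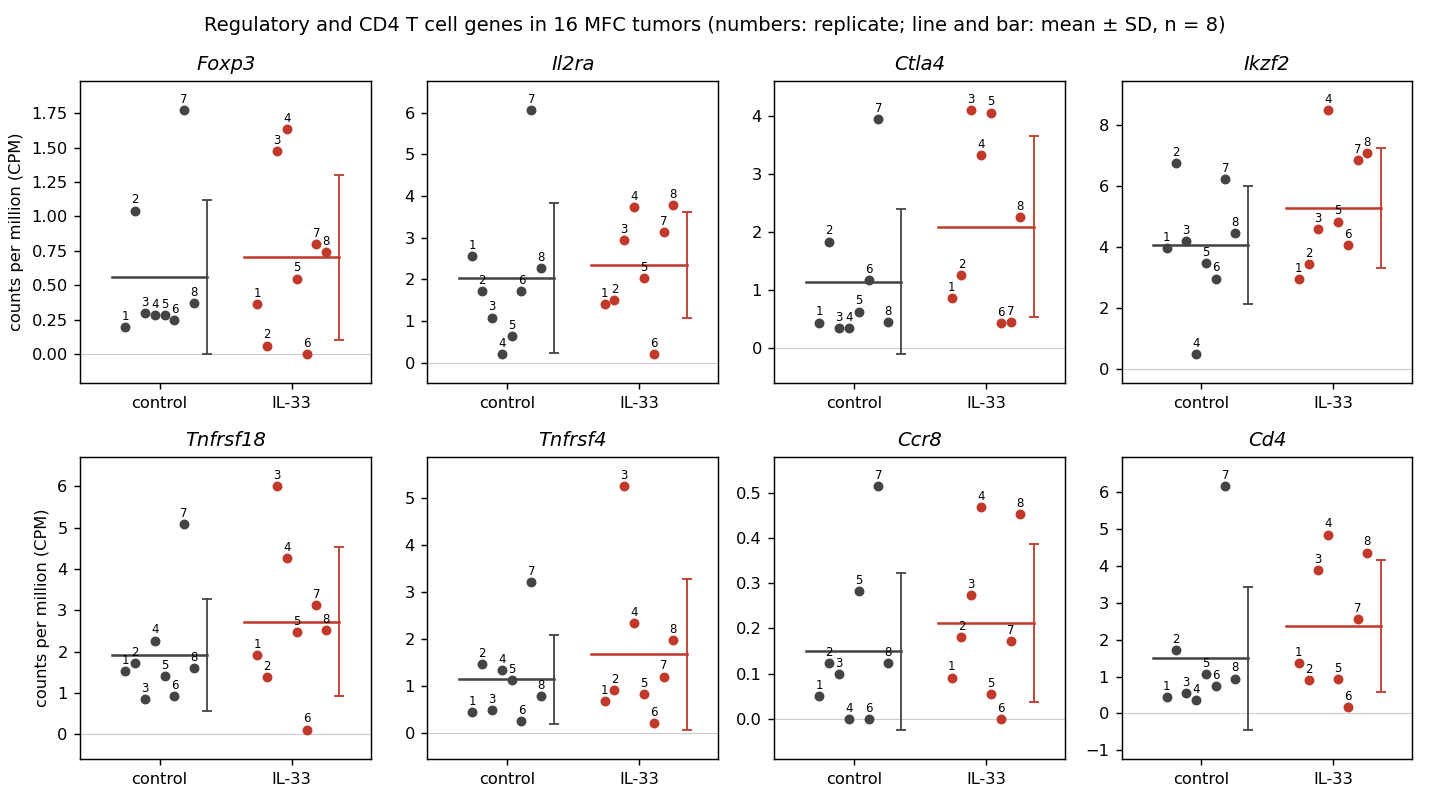
Level of each of the 8 genes in CPM (vertical axis, linear, a scale of its own for each gene) in the 8 control tumors (gray) and the 8 IL-33 tumors (red). Each point is a tumor with its replicate number, the line is the group mean and the bar the SD (n = 8); the groups overlap for every gene, control replicate 7 is highest for 4 of the 8 genes and IL-33 replicate 6 is the lowest IL-33 tumor for all but Ikzf2.

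Over the whole table, edgeR tested 16817 genes and called 0 (0%) at a BH-adjusted p under 0.05, the smallest being 0.418. Unadjusted, p was under 0.05 for 1680 genes higher (9.99%) and 196 lower (1.17%) in IL-33 tumors. DESeq2 also called 0 genes, with 424 higher and 267 lower at an unadjusted p under 0.05. These counts depended on single tumors. Without IL-33 replicate 7 they were 289 higher and 362 lower, and the genes lower were 111 without control replicate 4, 307 without IL-33 replicate 3, and 127 when IL-33 replicate 5 was left out. Of the 8 members 0 had an adjusted or an unadjusted p under 0.05 over all 16 tumors, while without control replicate 7 Ctla4 and Cd4 had an unadjusted p under 0.05, beside 1688 genes higher and 225 lower of 16764 tested. All 8 had a positive log2 fold change, with a median of 0.38, beside a median of 0.056 and 58.3% positive values over all genes tested. Without IL-33 replicate 7 the members' median was 0.44, beside −0.011 over all genes.

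Most members varied with the T cell transcripts of each tumor, Ctla4 and Ikzf2 less closely. The summed level of Cd3d, Cd3e and Cd3g, which encode the CD3 chains of the T cell receptor, ranged from 1.91 to 30.5 CPM among control tumors (median 5.40) and 1.46 to 25.8 CPM among IL-33 tumors (median 5.40). The highest tumors were control replicate 7 (30.5 CPM) and IL-33 replicates 4 (25.8), 8 (18.9) and 3 (18.4), and the lowest IL-33 replicate 6 (1.46) and control replicate 6 (1.91). Between the groups the CD3 sum differed by 0.17 on the log2(CPM + 0.5) scale (two-sided exact permutation test, p = 0.777). IL-33 replicate 4 was among the 4 highest tumors for all 8 members and control replicate 7 for 7 of them. IL-33 replicate 6 was among the 4 lowest for 7 of them, Ikzf2 being the exception.

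Across the 16 tumors, Pearson's r between a member and the CD3 sum, both as log2(CPM + 0.5), was 0.89 for Cd4, 0.87 for Foxp3, 0.85 for Tnfrsf4 and Ccr8, 0.81 for Tnfrsf18, 0.76 for Il2ra, 0.65 for Ctla4 and 0.51 for Ikzf2. Spearman's rho was 0.83 for Cd4, 0.78 for Foxp3, 0.53 for Ctla4 and 0.60 for Ikzf2. Without the 2 tumors farthest from the median CD3 sum, control replicate 7 and IL-33 replicate 4, r was 0.81 for Cd4, 0.77 for Foxp3, 0.47 for Ctla4 and 0.37 for Ikzf2. Within the control group r was 0.87 for Foxp3 and within the IL-33 group 0.86. These are descriptions of 16 libraries, in which both values of a point share the library and its total count, and the r of other genes with the CD3 sum was not computed. Ctla4 departed most in IL-33 replicate 5, whose CD3 sum was only 3.68 CPM beside 4.06 CPM of Ctla4.

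With the CD3 sum as a covariate in edgeR's fit, the group difference of most members moved toward 0. The log2 fold change was −0.057 for Foxp3, 0.079 for Il2ra, 0.080 for Tnfrsf4, 0.15 for Tnfrsf18, 0.22 for Ccr8, 0.32 for Ikzf2, 0.45 for Cd4 and 0.87 for Ctla4 (SE 0.54, edgeR BH-adjusted p = 0.560 for Ctla4). The covariate was measured in the same libraries. In this fit 0 of the 16817 genes had an adjusted p under 0.05, and 10.7% (1793 genes) had an unadjusted p under 0.05, beside 0 of the 8 members. Without IL-33 replicate 7 the value for Ctla4 was 1.03 (edgeR unadjusted p = 0.04999, BH-adjusted p = 0.867), for Foxp3 −0.19 and for Il2ra −0.048. Of the 15803 genes tested without that tumor, 850 had an unadjusted p under 0.05.

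**Figure D2:**
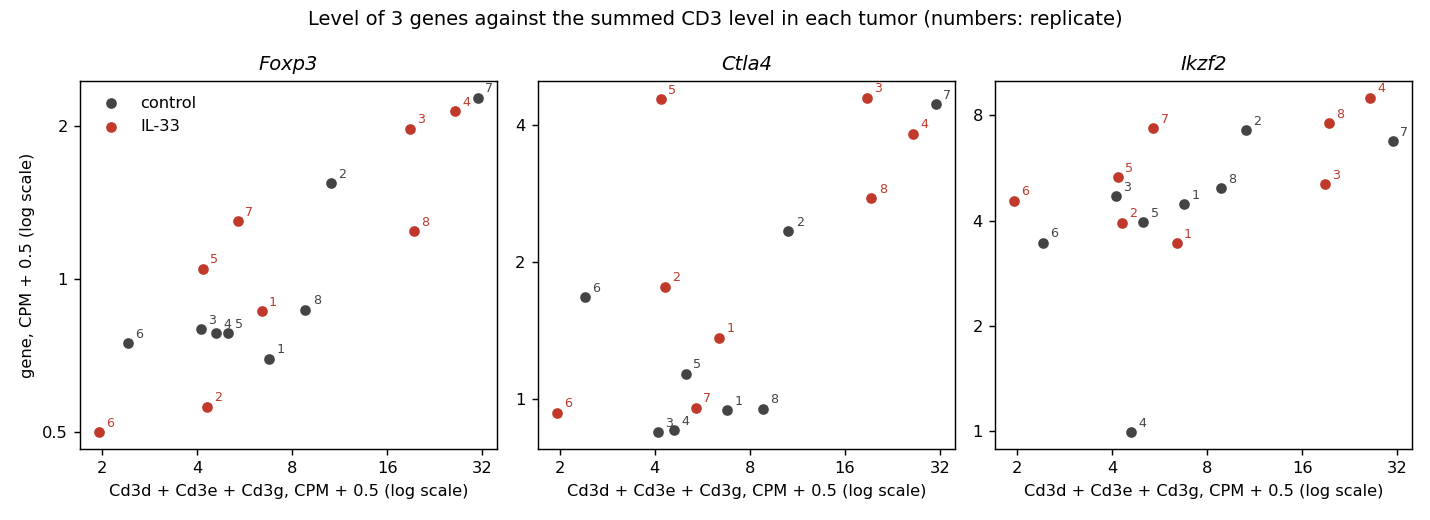
Level of Foxp3, Ctla4 and Ikzf2 (vertical axis, CPM + 0.5, log scale) against the summed level of Cd3d, Cd3e and Cd3g (horizontal axis, CPM + 0.5, log scale) in the 8 control tumors (gray) and 8 IL-33 tumors (red), labeled by replicate number. Foxp3 follows the CD3 sum (r = 0.87, n = 16), while IL-33 replicate 5 lies high for Ctla4 and control replicate 4 low for Ikzf2.

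**Figure D3:**
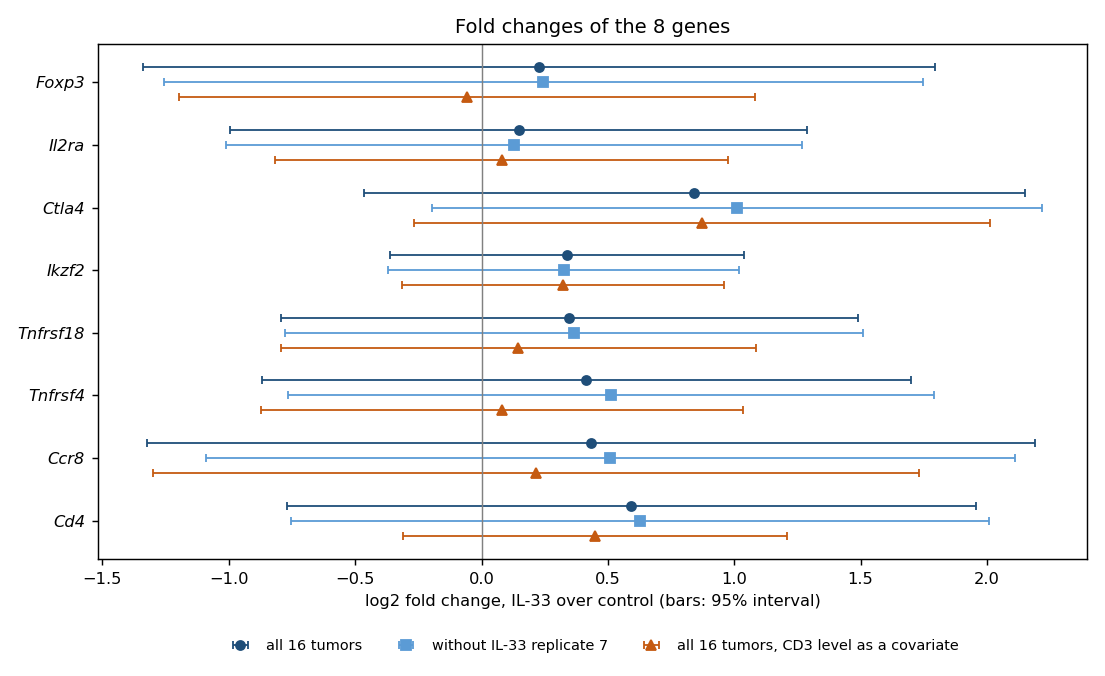
Log2 fold change of the IL-33 group over the control group (horizontal axis) for each of the 8 genes, with 95% intervals as bars. Circles are the fit of all 16 tumors, squares the fit without IL-33 replicate 7 and triangles the fit of all 16 tumors with the CD3 sum as a covariate; the intervals of all 24 estimates include 0.

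Ratios within a tumor, which do not depend on its total count, compared Foxp3 and Cd4 with other T cell transcripts. The ratio of Foxp3 to Cd4 was 0.29 to 0.818 in the control group (median 0.439) and 0.0968 to 0.60 in the IL-33 group (median 0.299). Its mean log2 value was −1.16 ± 0.53 (SD, n = 8) and −1.98 ± 0.86 (SD, n = 8), a difference of −0.83 (two-sided exact permutation test, p = 0.0367, adjusted p = 0.147 over 4 ratios). Of the 8 IL-33 tumors, only replicate 5 was above the control mean, but the difference did not pass the adjusted threshold. It was −0.87 without IL-33 replicate 7 (exact permutation test, p = 0.0396, adjusted p = 0.159). Only when IL-33 replicate 5 was left out was the adjusted p under 0.05 (−1.01, exact permutation test, adjusted p = 0.0361). In 4 control tumors the ratio rests on 4 counts of Foxp3. The lowest ratios, of IL-33 replicates 2 (0.0968) and 6 (0.143), rest on 1 and 0 counts, so that the added 0.5 sets the latter.

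The ratio of Foxp3 to the CD3 sum had a median of 0.0733 in the control group and 0.0648 in the IL-33 group, with a mean log2 difference of −0.27 (two-sided exact permutation test, p = 0.567, adjusted p = 0.756). That difference was −0.49 without IL-33 replicate 7, and −0.028 when replicate 6 was left out instead. For Foxp3 to Cd8a, the gene of a CD8 T cell co-receptor chain, the medians were 0.136 and 0.110 and the difference −0.17 (two-sided exact permutation test, p = 0.8003, adjusted p = 0.8003). It changed sign, to 0.13 or 0.15, without IL-33 replicate 2 or 6. The ratio of Cd4 to Cd8a had medians of 0.286 and 0.385 and a difference of 0.66 (two-sided exact permutation test, p = 0.183, adjusted p = 0.367). IL-33 replicate 7 was the only tumor with more Cd4 than Cd8a counts, at a ratio of 1.65, and without it the difference was 0.37. None of these 3 differences exceeded the spread between tumors.

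The members also varied with each other. Over their 28 pairs, Pearson's r across the 16 tumors ranged from 0.27 (Ikzf2 with Tnfrsf18) to 0.90 (Foxp3 with Cd4), with a median of 0.71. The other pairs near the top were Ccr8 with Cd4 (0.89) and the neighbors Tnfrsf18 with Tnfrsf4 (0.88). With Foxp3, r was 0.86 for Tnfrsf18, 0.85 for Tnfrsf4, 0.74 for Ctla4, 0.73 for Il2ra, 0.72 for Ccr8 and 0.55 for Ikzf2. Among 13963 other genes with a mean of at least 0.5 CPM, Cd4 ranked 70, Tnfrsf18 196, Tnfrsf4 228, Ctla4 724, Il2ra 740 and Ikzf2 2007 by r with Foxp3. The median r of all these genes was 0.16, and 427 (3.06%) had an r over 0.8.

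The 15 genes with the highest r with Foxp3 held none of the members. Rnase6 (r = 0.96, rho = 0.91), Cd40 (r = 0.96, rho = 0.92) and Parp10 (r = 0.95, rho = 0.94) led, followed by H2-T23, Ass1, Unc93b1, Tapbp, Rtp4, Gimap3, Ly9, Il18bp, Plbd1, Tbc1d10c, Trim12a and Gbp2b, down to r = 0.94. Cd40 encodes the co-stimulatory receptor of antigen-presenting cells, Tapbp encodes tapasin of the MHC class I loading complex, and Rtp4 and Gbp2b are interferon-inducible. For Cd40, r was 0.97 within the control group, 0.95 within the IL-33 group, 0.96 without IL-33 replicate 7 and 0.94 without control replicate 7 and IL-33 replicate 4, the 2 tumors farthest from the median of Foxp3. For Cd8a, r with Foxp3 was 0.71 (rho = 0.61) over all 16 tumors and 0.49 without those 2 tumors. The other T cell genes compared had a higher r with Foxp3 over all 16 tumors. It was 0.91 for Trac, 0.86 for Cd3g, 0.85 for Cd28 and Cd3e, 0.84 for Cd3d and 0.81 for Icos. Trac ranked 51, before Cd4, so a high r with Foxp3 was not particular to the members.

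The table of RefSeq promoter windows used here, on GRCm38.p6, matched 6 of the 8 members, with 7 windows in all, and has no entry for Ikzf2 and Cd4. Since the members varied with each other, the 250 bases before a RefSeq start are shown where they overlap no exon of a protein-coding transcript, which left 1 window each of Foxp3, Il2ra and Ctla4, all on the plus strand. That of Foxp3 (chrX:7580233-7580482) ends at the start of a Foxp3 exon, inside an intron of the longest gene model, and all 250 bases lie in an exon of the noncoding gene Flicr and within the span of Gm36995. That of Il2ra (chr2:11642542-11642791) lies before the gene and overlaps no annotated gene, and that of Ctla4 (chr1:60908775-60909024) lies in an intron of the longest gene model. Capitals mark matches, on either strand, to the STAT letters TTCNNNGAA, the core of NFAT motifs, which reads GGAAA, the forkhead letters, which read TGTTTAC, and the GATA letters, which read AGATAA.
Foxp3: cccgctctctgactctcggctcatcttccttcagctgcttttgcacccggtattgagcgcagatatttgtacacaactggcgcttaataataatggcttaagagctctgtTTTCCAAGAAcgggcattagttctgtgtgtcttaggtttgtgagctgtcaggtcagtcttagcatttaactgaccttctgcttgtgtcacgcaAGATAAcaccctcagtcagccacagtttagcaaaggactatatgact
Il2ra: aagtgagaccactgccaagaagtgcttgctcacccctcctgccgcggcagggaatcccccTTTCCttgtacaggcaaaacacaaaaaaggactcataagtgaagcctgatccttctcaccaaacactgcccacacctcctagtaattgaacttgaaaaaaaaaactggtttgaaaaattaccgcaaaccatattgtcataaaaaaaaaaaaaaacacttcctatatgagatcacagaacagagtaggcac
Ctla4: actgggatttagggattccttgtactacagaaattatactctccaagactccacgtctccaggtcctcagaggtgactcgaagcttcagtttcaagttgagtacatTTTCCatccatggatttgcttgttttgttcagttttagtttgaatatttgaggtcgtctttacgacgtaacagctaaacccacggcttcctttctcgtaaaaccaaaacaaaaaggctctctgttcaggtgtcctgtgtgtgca

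In the Foxp3 window the STAT letters start 139 bases before the RefSeq start and overlap a match to GGAAA on the minus strand by 4 bases, and the GATA letters start at base 47 before it. The Il2ra and Ctla4 windows each hold 1 match, to GGAAA on the minus strand. Over 32851 promoter windows of this length, the STAT letters were present in 7.02%, the NFAT core in 55.6%, the GATA letters in 9.99% and the forkhead letters in 3.17%. Matches to the forkhead letters were absent from all 7 windows. The Foxp3 window that is not shown (chrX:7579426-7579675) holds 1 match to the NFAT core and none to the STAT or GATA letters. Of the other windows not shown, that of Tnfrsf18 holds a match to the STAT letters and 2 to the NFAT core, that of Tnfrsf4 1 to the NFAT core and that of Ccr8 1 to the GATA letters. A match describes letters only, and binding was not measured.

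The T cell receptor complex and pan-T genes, 18 genes of T cell receptor chains and of T cell signaling and surface proteins, gave the setting of the members. All 18 were tested, 0 had an adjusted or unadjusted p under 0.05, and 17 had a positive log2 fold change with a median of 0.33 (0.40 without IL-33 replicate 7), against 0.056 over all genes. Lck, the kinase of the CD4 and CD8 co-receptors, had 6.19 ± 5.76 CPM in the control group and 8.58 ± 6.52 CPM in the IL-33 group (SD, n = 8 per group), with its lowest level in IL-33 replicate 6 and its highest in control replicate 7. Trbc2, a constant gene of the T cell receptor beta chain, was the 1 gene of the list with a negative value, −0.32 (SE 0.52, edgeR BH-adjusted p = 0.881), and −0.19 without IL-33 replicate 7. With control replicate 4 left out as well, a setting added after the data had been seen, Trbc2 was at 0.13 and all 18 genes had a positive value.

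The ligands and growth signals of the members' receptors did not pass the test. Of the 10 IL-2 pathway genes, 9 were tested, 0 had an adjusted p under 0.05 and 1, Cish, a feedback inhibitor induced by STAT5, was higher at an unadjusted p under 0.05. Over all genes tested, 9.99% were higher at that threshold. Cish had 4.57 ± 1.09 CPM in the control group and 9.20 ± 10.1 CPM in the IL-33 group (SD, n = 8 per group), with 33.8 CPM in IL-33 replicate 7. Its log2 fold change was 0.83, and without that tumor 0.27 with an unadjusted p over 0.05 in edgeR. The list's median log2 fold change was 0.049, or 0.047 without IL-33 replicate 7. The gene of the cytokine itself, Il2, was not tested, with 5 counts over the control group and 1 over the IL-33 group. The shared receptor chain Il2rg had 58.9 ± 23.8 and 52.8 ± 24.5 CPM (SD, n = 8 per group), and the kinase Jak1 150.8 ± 44.3 and 185 ± 46.2 CPM (SD, n = 8 per group).

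Of the 11 genes for ligands of the members' receptors, 0 had an adjusted p under 0.05 and 1, Ccl1, a ligand of CCR8, was lower at an unadjusted p under 0.05. Over all genes tested, 1.17% were lower and 9.99% higher at that threshold. Ccl1 had 20 counts in the control group, 13 of them in replicate 7, and 4 counts in the IL-33 group, at most 2 in a tumor, so no IL-33 tumor was above the floor of 3 counts. Ccl8, a ligand of mouse CCR8, was abundant and spread widely, at 16.8 to 385 CPM in the control group and 7.35 to 290.1 CPM in the IL-33 group. Cd80, a ligand of CTLA-4, had 39.0 ± 7.81 and 37.5 ± 14.4 CPM (SD, n = 8 per group), with 6.55 CPM in IL-33 replicate 7 as its lowest level. The ligands of OX40 and GITR, Tnfsf4 and Tnfsf18, held 0 to 15 counts a tumor. The MHC class II gene H2-Aa, whose product CD4 binds, also spread widely, between 2.78 and 223.5 CPM in control tumors and between 2.05 and 136.6 CPM in IL-33 tumors. The median log2 fold change of the list was 0.25, or 0.27 without IL-33 replicate 7.

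Among 9 other co-stimulatory TNF receptor family members and adaptors, 0 had an adjusted p under 0.05. At an unadjusted p under 0.05, where 9.99% of all genes tested were higher, the 1 gene was Tnfrsf1b, the gene of TNF receptor 2. Its level was 84.7 ± 13.6 CPM in the control group and 105 ± 12.3 CPM in the IL-33 group (SD, n = 8 per group), and all 8 IL-33 tumors exceeded the control mean. The log2 fold change was 0.24 (SE 0.11, edgeR BH-adjusted p = 0.427), and 0.28 without IL-33 replicate 7. Tnfrsf9 (4-1BB) had 364 ± 150.7 and 314 ± 150.02 CPM (SD, n = 8 per group), and was at 505.6 CPM in IL-33 replicate 6, the tumor with the lowest CD3 sum. The list's median log2 fold change was −0.0027, or 0.048 without IL-33 replicate 7. Over the 4 CD28 family receptors other than Ctla4, which are Cd28, Icos, Pdcd1 (PD-1) and Btla, 0 had an adjusted or unadjusted p under 0.05, and all 4 log2 fold changes were positive, with a median of 0.82 (0.81 without IL-33 replicate 7). Icos had 0.878 ± 0.955 and 1.80 ± 1.43 CPM (SD, n = 8 per group), and its log2 fold change of 1.00 had an BH-adjusted p of 0.641 in edgeR.

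Of 16 other genes linked to regulatory T cells, 0 had an adjusted or unadjusted p under 0.05, with a median log2 fold change of 0.41 that was 0.14 without IL-33 replicate 7. Several were abundant in tumors with few T cell transcripts. IL-33 replicate 6 held 649 CPM of Il1rl1 and 230 CPM of Areg (amphiregulin), beside a CD3 sum of 1.46 CPM. Tgfb1 lay between 80.2 and 151 CPM in all 16 tumors. Il10 had 1.36 ± 1.02 and 2.11 ± 1.35 CPM (SD, n = 8 per group), and Entpd1 (CD39) had 26.3 ± 8.18 and 40.9 ± 30.0 CPM (SD, n = 8 per group), with 111 CPM in IL-33 replicate 7.

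Of 18 genes of the helper T cell lineages, 13 were tested and 0 had an adjusted p under 0.05. At an unadjusted p under 0.05, where 9.99% of all genes tested were higher, 1 was higher, Cd40lg (CD40 ligand). It had 1 count in the control group and 12 in the IL-33 group, where 7 of the 8 tumors had a count and replicate 7 the most, with 4. Since no control tumor had more than 3 counts and only IL-33 replicate 7 did in the IL-33 group, no fold is given, and without that tumor the gene was no longer tested. The cytokine genes Il4, Il5, Il13 and Il17a had 7, 4, 2 and 0 counts over the 16 tumors. Zbtb7b, which encodes the CD4 lineage factor ThPOK, had 90.0 ± 18.6 and 99.2 ± 10.3 CPM (SD, n = 8 per group). It was at 90.9 CPM in IL-33 replicate 6, beside 0.162 CPM of Cd4, and the cells that carried it were not tested. Gata3 had 3.50 ± 0.695 and 3.91 ± 1.05 CPM (SD, n = 8 per group). The list's median log2 fold change was 0.33 (0.20 without IL-33 replicate 7), or 0.096 with Cd40lg and Il21, which had 3 or fewer counts in every tumor of a group, set to the limit that 3 counts allow. Likewise Trat1, Gpr83 and Ccl1, set to that limit, gave medians of 0.30 for the pan-T genes, 0.34 for the other regulatory genes and 0.25 for the ligands.

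Of 7 genes of naive and circulating lymphocytes, 0 had an adjusted p under 0.05 and Lef1 was higher at an unadjusted p under 0.05. Over all genes tested, 9.99% were higher at that threshold. Lef1 had 0.405 ± 0.222 CPM in the control group and 1.64 ± 3.49 CPM in the IL-33 group (SD, n = 8 per group), with 10.3 CPM in IL-33 replicate 7, and S1pr1 and Tcf7 were highest in that tumor too, at 70.7 and 22.1 CPM. Without it the log2 fold change of Lef1 went from 1.75 to −0.042. The list's median was 0.78, and 0.19 without IL-33 replicate 7. Then Il7r (the IL-7 receptor) had a log2 fold change of 0.77 (edgeR BH-adjusted p = 0.964).

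Markers of other cell types varied over the same tumors. The 5 CD8 T cell genes summed to 15.2 to 156 CPM in the control group and 12.7 to 188.5 CPM in the IL-33 group. Gzmb and Prf1, with means of 46.0 and 15.2 CPM over the 16 tumors, made up most of the sum. Cd8a and Cd8b1 had means of 5.86 and 1.58 CPM. Control replicate 6 summed to 77.8 CPM beside only 1.54 CPM of Cd8a, so the sum did not follow Cd8a in every tumor. The 5 NK cell genes, led by Klrk1, summed to 4.03 to 39.0 and 5.95 to 45.0 CPM. The 6 macrophage genes, led by C1qa, summed to 624 to 1699 and 464 to 1511 CPM, and the 5 dendritic cell genes, led by Zbtb46, to 6.22 to 19.3 and 10.4 to 45.5 CPM. The 45.5 CPM were found in IL-33 replicate 7, and IL-33 replicate 4 followed with 22.8 CPM. The 5 B cell genes, led by Cd79b, summed to 1.48 to 62.9 and 2.33 to 46.4 CPM, and the 5 plasma cell genes to 163 to 349 and 252 to 516 CPM. Of these, Sdc1 had means of 234 and 218 CPM, Jchain 15.5 and 104.6 CPM and Mzb1 2.16 and 21.4 CPM in the control and IL-33 groups. The 6 mast cell genes summed to 4.13 to 96.5 CPM in control tumors and 2.60 to 83.6 CPM in IL-33 tumors. They were highest in control replicate 7, the tumor highest in Foxp3, where Tpsb2 led with 28.6 CPM, and in IL-33 replicate 7, where Kit led with 41.2 CPM and had the highest mean through that tumor. With the log2 sum of a list, r of Foxp3 was 0.82 for NK cell, 0.79 for macrophage, 0.76 for B cell, 0.73 for mast cell, 0.65 for CD8 T cell, 0.58 for dendritic cell, 0.32 for plasma cell, 0.20 for lymph node stroma, −0.089 for ILC2 and −0.71 for the 5 epithelium genes (n = 16 tumors). The epithelium genes, led by Krt8, summed to 379 to 1546 CPM in the control group and 236 to 1366 CPM in the IL-33 group. The sum was lowest in IL-33 replicate 4 and highest in control replicate 4. Most of it came from Krt8 and Krt19, with means of 465 and 196 CPM over the 16 tumors. Epcam, Krt18 and Cdh1 reached at most 0.642, 1.83 and 2.69 CPM in the control group. In IL-33 replicate 7 they were at 98.8, 159 and 104 CPM.

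The 6 ILC2 genes summed to 493 to 1325 CPM in control tumors and 86.1 to 912.2 CPM in IL-33 tumors. Il1rl1 had the highest mean, but in IL-33 replicate 7, the lowest sum, it was 37.1 CPM beside 26.7 CPM of Il17rb and 20.5 CPM of Rora, and the defining cytokine genes Il5 and Il13 had 4 and 2 counts over all tumors. The 6 lymph node stroma genes summed to 6.11 to 59.4 CPM in the control group and to 8.91 to 239 CPM in the IL-33 group. Cxcl13 had the highest mean, but the 239 CPM of IL-33 replicate 7 were led by Ccl21a (182 CPM). No listed marker of these types was at 0 in all 16 tumors. The part of any of these cell types in the members' values was not tested.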

How the data were processed

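RNA of 16 tumors (8 control, 8 IL-33) had been aligned with HISAT2 to mm10 and counted with featureCounts, as the submitters' processing notes name them, and the authors deposited raw counts per gene without normalization. Versions, annotation release and strand setting are not given in the sources used here. Groups come from the sample titles. Identifiers were paired with GENCODE M21 (GRCm38), which named 22255 of 22298 genes, and the 43 without a symbol held 0.00434% of the counts. CPM values, log2 values and ratios were computed here from the deposited counts. At 14139268 counts in the shallowest tumor, 3 counts are 0.212 CPM. All 120 pairs of tumors differed beyond sampling noise (lowest chi-square per degree of freedom, 8.79).

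Genes whose counts summed to 10 or more were tested with edgeR 4.0.16 (R 4.3.3; TMM, quasi-likelihood, Benjamini-Hochberg), with no block. Members and ratios were tested by the exact permutation test over 12870 assignments, with 0.5 added (smallest p 0.000155), on a scale that understates changes of low genes. The fold change at equal CD3 level used log2 of the CD3 sum as a covariate. Likeness to Foxp3 was taken over genes with a mean of at least 0.5 CPM. Alternatives were DESeq2 1.42.0, upper-quartile normalization, filterByExpr, no filter, other pseudocounts, TMM-scaled CPM, the replicate block, and each tumor left out. The fits were tested on simulated data. Named were the 8 members, list genes with an unadjusted p under 0.05 and up to 4 others by mean CPM, other list genes where a count or a level needed them, and the 15 genes most like Foxp3. The members and lists were chosen with earlier results of these data known. No label says that the tumors of a group came from separate mice, so p-values measure the spread between these tumors. In its methods, the paper on these data gives fewer mice per group for this tumor model than the tumors per group sequenced. The result of 1 gene of the naive lymphocyte list is not reported here.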

Additional observations from a re-analysis of the deposited data

Results flagged for a closer look

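In 26 groups of 8 values, the highest or lowest tumor was compared with the nearest of the others relative to the range. If values are normally distributed, about 1 group in 20 is set apart in this way by chance, and CPM values are skewed. Here 7 were, and 6 of the 7 are control replicate 7, which are not independent since its T cell transcripts were high together. In that tumor Cd4 was 6.17 CPM (next highest control tumor 1.72 CPM), Il2ra 6.06 CPM (next 2.57), Tnfrsf18 5.09 CPM (next 2.26), Ctla4 3.94 CPM (next 1.84), Tnfrsf4 3.20 CPM (next 1.47) and the CD3 sum 30.5 CPM (next 10.1). In the IL-33 group, Tnfrsf4 was 5.25 CPM in replicate 3 (next 2.34 in replicate 4). Foxp3, Ikzf2, Ccr8 and the 4 log2 ratios had no such tumor in either group.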

How the results depend on the processing

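Under 401 alternatives of 46 results, 378 kept their direction and their side of the threshold, or moved by less than the spread. The count of genes with an adjusted p under 0.05 was 0 in all fits. Genes higher at an unadjusted p under 0.05 numbered 1680, but 499 with filterByExpr (12800 genes tested), 424 with DESeq2, 246 with the replicate block and 330 without control tumor 4 and IL-33 tumor 7, a setting added after the data had been seen. Genes lower numbered 196, but 72 with the replicate block and 329 without both. Leaving out single tumors, genes higher ranged from 289 to 1902 and genes lower from 111 to 362. The cause was not tested.

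Same-numbered tumors did not deviate together (r from −0.32 to 0.35 over the 8 numbers, 4 of 8 over 0.1, 1 of 8 best with its own number), so the replicate block is a technical alternative. It gave −0.83 for the Foxp3 to Cd4 ratio (256 exact sign flips, p = 0.0625) and changed no member's call.

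With each tumor left out, the log2 fold change ranged from −0.053 to 0.71 for Foxp3, −0.011 to 0.60 for Il2ra and −0.13 to 0.78 for Tnfrsf4. The Foxp3 to Cd4 ratio ranged from −1.01 to −0.63 and Foxp3 to Cd8a from −0.51 to 0.15. Without both tumors Il2ra was at −0.032, and at equal CD3 level at −0.17 (−0.048 without IL-33 replicate 7). Within the control group, r with Foxp3 was 0.90 for Ctla4 and 0.77 for Tnfrsf18. Under filterByExpr Foxp3 and Ccr8 were not tested. Foxp3 and Ccr8 had at most 31 and 11 counts a tumor.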

Other observations

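The summed CPM of the 8 members placed the tumors of both groups in a mixed order. It was 33.0 CPM in control replicate 7, 29.1 CPM in IL-33 replicate 4, 28.5 CPM in IL-33 replicate 3 and 23.2 CPM in IL-33 replicate 8, and lowest in IL-33 replicate 6 (5.19 CPM) and control replicate 4 (5.30 CPM).

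In IL-33 replicate 7 most members were high and Ctla4 was low. Cd4 (2.56 CPM), Foxp3 (0.798 CPM), Il2ra (3.13 CPM), Tnfrsf18 (3.13 CPM) and Ikzf2 (6.84 CPM) were among the 5 highest of the 16 tumors, while Ctla4 was at 0.456 CPM, Tigit at 2.39 CPM (the lowest of all tumors) and Cd8a at 1.54 CPM. In IL-33 replicate 5 Ctla4 was high, at 4.06 CPM, and Foxp3 was at 0.549 CPM.

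Control replicate 4 had the lowest Ikzf2 and Il2ra of all tumors, at 0.495 and 0.212 CPM, but 2.26 CPM of Tnfrsf18 and 1.34 CPM of Tnfrsf4, above the control means of both.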
